A study of Mus musculus with 10 samples.

Results

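The 9 digestive enzyme genes were chosen by symbol and followed through all matrices: the carboxypeptidases *Cpa1* and *Cpb1*, the chymotrypsinogen *Ctrb1*, the elastases *Cela1* and *Cela2a*, colipase *Clps*, pancreatic lipase *Pnlip*, its relative *Pnliprp1*, and *Cel*, the bile salt-dependent lipase. All 9 were present among the 27716 genes common to every matrix. The data were UMI counts (counts of unique molecules captured at the 3′ end of transcripts) from dissociated mouse embryonic pancreas in 8 libraries. Of these, 7 were Swiss Webster: kit version 1 (v1) libraries of sorted live cells (an E12.5 and an E17.5 library, and E14.5 batches 1 and 2), and version 2 (v2) libraries depleted of CD140a+ mesenchyme, 1 for each of the same stages, with 2 technical wells summed at E17.5. The other library came from E14.5 *Fev-Cre*; *ROSA26mTmG* pancreas on a C57BL/6J background, in which Cre is driven by *Fev* and GFP+ and tdTomato+ cells were sorted. It was made with kit version 2 but is not counted among the v2 libraries below. No treatment was given. Each library was loaded from pooled pancreata of 1 litter, or 2 litters at E12.5 v1. The sample was thus the pool, and cells were not treated as replicates. The E12.5 and E17.5 v1 libraries belong to batch 2, which was made on another day than batch 1. The v2 stages were made on a different day each, and dissociation lasted longer at later stages, so stage cannot be told apart from handling time or, within v2, from day.

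Acinar cells make the enzymes of the exocrine pancreas, store most of them as inactive precursors in zymogen granules, and release them into the ducts. They arise from the tips of the branching epithelium, where *Cpa1* is an early marker, and the basic helix-loop-helix factor *Ptf1a* acts with *Rbpjl* to drive the enzyme genes. Proteases are activated in the gut, whereas colipase lets pancreatic lipase act on fat in the presence of bile salts. Droplets in single-cell assays also capture RNA released by broken cells, so abundant transcripts of this kind are found at a low level in cells that do not make them.

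The libraries held 3849 to 13197 barcodes and 15671934 to 127151679 UMIs each, or 8749 and 8684 barcodes in the E17.5 v2 wells. Haemoglobin took 60.9% of UMIs in the E17.5 v1 library and 31.8% and 31.7% in the E17.5 v2 wells, against 2.12% to 24.95% in the other Swiss Webster libraries and 0.0128% in the Fev-Cre library. Pairs within v1, and pairs among the v2 libraries and wells and the Fev-Cre library, shared at most 1.79% of the barcodes of either. The v1 barcodes, of another length, were not compared with the others. Acinar-like cells were named with the 9 genes and their relatives held out of the clustering, by 11 markers such as *Ptf1a*, *Rbpjl*, *Bhlha15* and *Erp27*. Of these markers 9 to 11 were found per library, with *Tmed11* and *Aqp12* at 0 UMIs in the E12.5 v1 class. There were 109 such cells at E12.5 v1, 708 and 88 in E14.5 v1 batches 1 and 2, 22 at E17.5 v1, 1499, 2608 and 1944 at the v2 stages and 935 in the Fev-Cre library. Within the acinar-like cells, erythroid markers summed to 25874 CPM (UMI counts scaled to the same total of 1e6) at E17.5 v1 and 11908 at E17.5 v2 against 563 to 1200 in the earlier Swiss Webster libraries, and mesenchymal markers, 3 of 11 of which were found at E17.5 v1, summed to 51.1 to 563. Immune markers, 2 of 10 of which were found at E17.5 v1, summed to 807 CPM at E17.5 v1 and 290 at E17.5 v2 against 49.8 to 92.3 earlier. Ductal markers summed to 1394 at E12.5 v1, above the 1032 of the acinar markers, to 562 at E12.5 v2 and 836 at E17.5 v1, and to 317 to 390 in the other Swiss Webster libraries. Endocrine markers summed to 543 in E14.5 v1 batch 2 against 45.7 in batch 1. The part of these in the results below was not tested.

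The stretch of 250 bases before the RefSeq start is shown for *Cpa1*, the earliest of the genes, and for *Ctrb1*, *Cela2a* and *Cpb1*, which rose most (GRCm38.p6, 5′ to 3′ on the strand of the gene). Capitals mark the E-box letters CANNTG, which basic helix-loop-helix factors can bind, and TTTCCC or its reverse complement, letters found in *Rbpj* and *Rbpjl* sites. The windows lie at chr6:30638968-30639217 (+), chr8:111691011-111691260 (-), chr4:141826006-141826255 (-) and chr3:20275734-20275983 (-).
Cpa1: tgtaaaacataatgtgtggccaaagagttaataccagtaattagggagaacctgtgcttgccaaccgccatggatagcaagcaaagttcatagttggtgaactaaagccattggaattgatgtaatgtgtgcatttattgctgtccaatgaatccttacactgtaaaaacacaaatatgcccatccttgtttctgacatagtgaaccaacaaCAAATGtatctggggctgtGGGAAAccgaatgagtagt
Ctrb1: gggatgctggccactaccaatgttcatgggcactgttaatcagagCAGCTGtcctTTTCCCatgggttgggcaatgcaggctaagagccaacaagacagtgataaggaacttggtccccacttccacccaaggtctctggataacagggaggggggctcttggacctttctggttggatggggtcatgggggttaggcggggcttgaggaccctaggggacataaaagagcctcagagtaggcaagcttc
Cela2a: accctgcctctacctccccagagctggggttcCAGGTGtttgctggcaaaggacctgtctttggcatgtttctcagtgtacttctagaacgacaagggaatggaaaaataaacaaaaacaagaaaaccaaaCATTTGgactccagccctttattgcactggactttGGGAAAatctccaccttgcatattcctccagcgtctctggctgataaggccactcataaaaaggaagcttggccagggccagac
Cpb1: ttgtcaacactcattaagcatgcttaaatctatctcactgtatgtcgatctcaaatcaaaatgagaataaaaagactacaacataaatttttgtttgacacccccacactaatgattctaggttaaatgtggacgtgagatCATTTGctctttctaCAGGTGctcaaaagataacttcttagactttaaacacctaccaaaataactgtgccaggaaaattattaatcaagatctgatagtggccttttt

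CANNTG, searched on both strands, was present in 7 of the 8 genes with a window and in 66.2% of 32851 RefSeq windows of the same length. TTTCCC was present in 5 of the 8 on either strand and in 22.0% of all windows. *Cpa1* held 1 copy of each, at positions -38 to -33 and -19 to -14 before the start, *Ctrb1* held 1 of each at -205 to -200 and -195 to -190, *Cela2a* had 2 E-boxes and 1 TTTCCC, and *Cpb1* had 2 E-boxes and no TTTCCC. The nuclear receptor letters AAGGTCA were in 2 of 8, *Cela1* and *Cel*, against 4.08% of windows, and TATAAA was in 2 of 8, *Cela1* and *Pnlip*, against 12.4%. These are matches of letters with no binding measured. *Clps* had no entry in the table. In GENCODE M21 on mm10, the genes sit on 8 chromosomes, with only *Pnlip* (chr19:58652498-58681788) and *Pnliprp1* (chr19:58728887-58744169) on the same one. GENCODE starts *Cela1*, *Cela2a* and *Pnlip* at other bases than RefSeq.

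The question of the stage series was in which order the enzyme genes come on. Levels below are CPM in the summed acinar-like cells of a library, which rank 1 gene across libraries but not different genes against each other. *Cpa1* was already high at E12.5, with 5877 CPM in v1 and 5101 in v2. At E14.5 it had 14051 and 14697 CPM in v1 batches 1 and 2 and 6428 in v2, and at E17.5 it had 8478 in v1 and 7637 in v2. The E12.5 values thus lay at 69.3% and 66.8% of the E17.5 values of the same kit. No Swiss Webster library of another stage fell below the E12.5 library of its kit, with cycling cells counted. At E12.5 v1 the 59 cells outside a cycling cluster, described below, lay above E17.5 v1, where all 22 cells were outside cycling clusters.

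**Figure D1:**
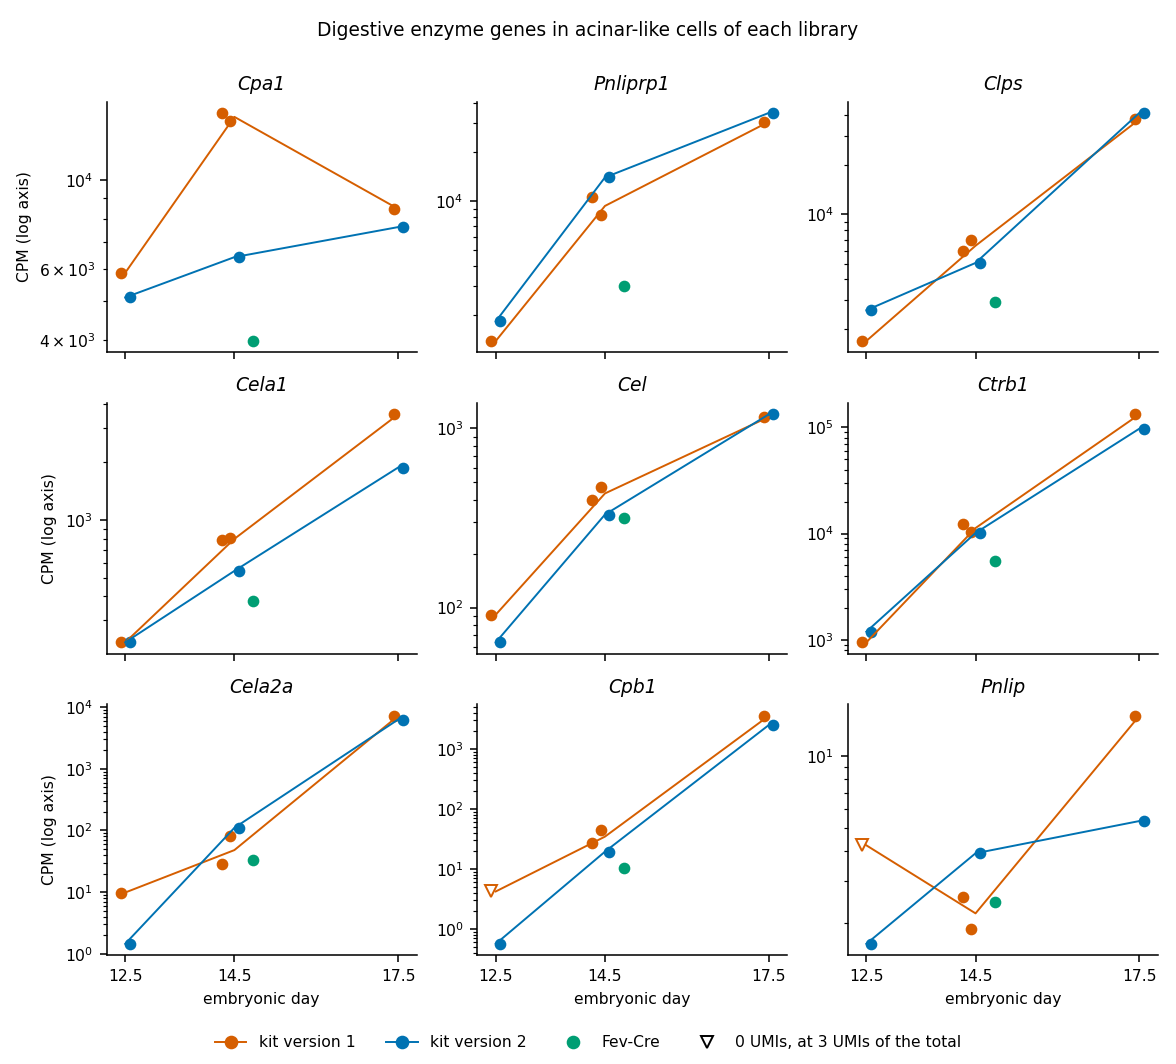
Level of each of the 9 genes in acinar-like cells (CPM, log axis) against embryonic day, with 1 point per library, v1 in orange, v2 in blue and Fev-Cre in green, lines joining stages within a kit, and open triangles for libraries with 0 UMIs, drawn at 3 UMIs of the total. *Cpa1* moved between 5101 and 14697 CPM in the Swiss Webster libraries, while *Ctrb1*, *Cela2a* and *Cpb1* climbed from 1192, 1.45 and 0.566 to 96842, 6325 and 2483 CPM in v2.

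*Pnliprp1*, *Clps*, *Cela1* and *Cel* formed a middle group, present at E12.5 and higher at each later stage. *Pnliprp1* had 1388 CPM at E12.5 v1 and 1829 at E12.5 v2, 8202, 10635 and 13970 at E14.5 in the order v1 batch 1, v1 batch 2 and v2, and 30641 and 34726 at E17.5 v1 and v2. *Clps* had 1688 and 2595 at E12.5, then 6959, 5926 and 5045 at E14.5 and 37843 and 41429 at E17.5, listed in the same order. The groups of the 3 stages did not overlap for either gene, nor for *Cela1*, *Cel*, *Ctrb1*, *Cela2a* and *Cpb1* below. The share of all genes with this pattern was not computed. *Cela1* went from 231 in each kit through 804, 792 and 543 to 3550 and 1878, and *Cel* from 91.4 and 64.0 through 472, 398 and 331 to 1159 and 1197. At E12.5 these 4 genes stood at 4.46% to 12.3% of their E17.5 value, and their order among themselves differed between the kits (*Cel* first in v1 and *Cela1* first in v2). At E14.5 *Pnliprp1* had reached 26.8% to 40.2%, *Cel* 27.6% to 40.7% and *Cela1* 22.3% to 28.9%, ranges that overlap, with *Clps* behind them at 12.2% to 18.4%.

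*Ctrb1*, which encodes an abundant protease precursor, was low at E12.5 and rose by an order of magnitude at each step. It had 945 and 1192 CPM at E12.5 v1 and v2, then 10388, 12192 and 10119 for E14.5 and 132026 and 96842 for E17.5. Per acinar-like cell this was 6.17 and 12.6 UMIs at E12.5, 78.0, 108 and 113 for E14.5, and 409 and 1066 for E17.5, where the lower v1 value went with a median of 2316 UMIs per cell against 8737 in v2. E12.5 stood at 0.716% and 1.23% of E17.5, and E14.5 at 7.87% to 10.4%. The E17.5 v2 wells gave 1099 and 1034 *Ctrb1* UMIs per cell, so the wells differed far less than the stages.

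*Cela2a* and *Cpb1* came last. *Cela2a* had 7 UMIs at E12.5 v1 (9.84 CPM) and 23 at E12.5 v2 (1.45 CPM), then 82.2, 28.1 and 110 CPM at E14.5 and 7246 and 6325 at E17.5. *Cpb1* had 0 UMIs at E12.5 v1, where 3 UMIs would be 4.22 CPM, and 9 UMIs at E12.5 v2 (0.566 CPM), then 44.4, 26.8 and 19.4 CPM at E14.5 and 3535 and 2483 at E17.5. At E14.5 these genes were still at 0.388% to 1.75% and 0.759% to 1.26% of the E17.5 value, which overlap. Within v2, E17.5 was 4374-fold above E12.5 for *Cela2a* (95% counting interval 2915 to 6901) and 4388-fold for *Cpb1* (2311 to 9597). Within v1 the folds were 736 (355 to 1840) for *Cela2a* and at least 838 for *Cpb1* with 3 UMIs allowed at E12.5.

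*Pnlip*, which encodes the main lipase of the adult gland, had few UMIs at every stage. Acinar-like cells held 0, 10, 2 and 1 *Pnlip* UMIs in the v1 libraries in order of stage and batch and 26, 114 and 114 at the v2 stages, or 1.63, 3.91 and 5.33 CPM in v2. The E17.5 v2 value was 3.26-fold above E12.5 (2.12 to 5.20), while the v1 libraries had too few UMIs to give an order. Its relative *Pnliprp1* was at 34726 CPM in the same E17.5 v2 cells.

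**Figure D2:**
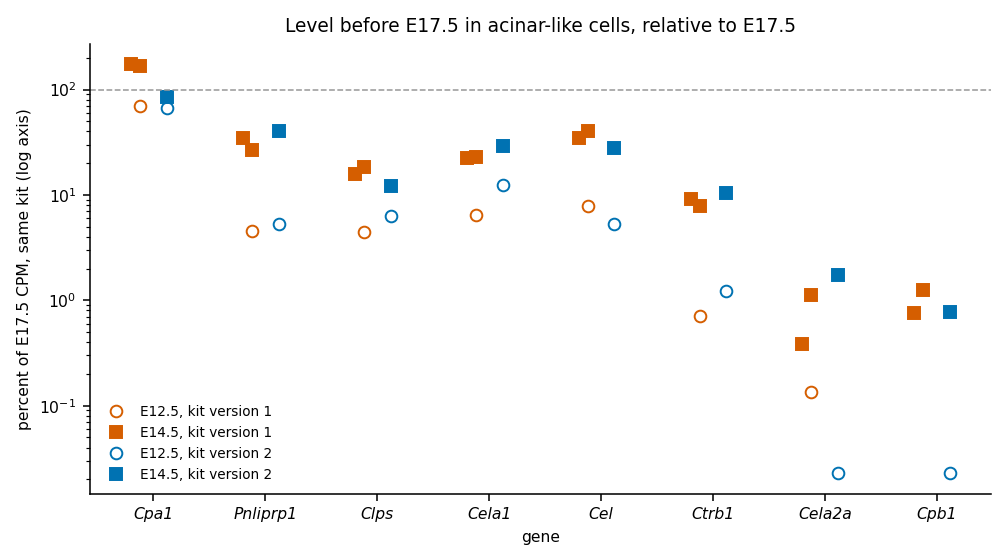
Level at E12.5 (open) and E14.5 (filled) as a percent of the E17.5 level of the same gene and kit, log axis, for 8 genes with v1 in orange and v2 in blue. *Cpa1* sits near or above the dashed 100% line at both stages, *Pnliprp1*, *Cel*, *Cela1* and *Clps* form a middle group, and *Ctrb1*, *Cela2a* and *Cpb1* lie lowest at E12.5, with *Cpb1* in v1 at 0 and not drawn.

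The steps were tested over the 7 Swiss Webster libraries with edgeR's quasi-likelihood test on summed counts, with stage and kit as terms, over 11424 genes. A gene was called at a Benjamini-Hochberg adjusted p under 0.05 and a change of at least 2-fold. Very small p-values of this fit are firmer than the number of pools allows and are not exact. From E12.5 to E14.5, 8 of the 9 genes were called higher, against 3.67% of all genes tested, and none lower. *Cpb1* rose by 5.56 on the log2 scale (SE 0.55, edgeR adjusted p = 5.23e-21), *Cela2a* by 5.12 (SE 0.51, 4.90e-21) and *Ctrb1* by 3.48 (SE 0.39, 4.19e-16). *Pnliprp1* followed with 2.97 (SE 0.37), *Cel* with 2.47 (SE 0.34), *Clps* with 1.66 (SE 0.35), *Cela1* with 1.64 (SE 0.33) and *Cpa1* with 1.08 (SE 0.34, edgeR adjusted p = 0.0260). *Pnlip*, at 1.495 (SE 0.72), had an edgeR adjusted p of 0.242. The *Cpa1* call was lost under most alternatives. Leaving out E12.5 v1 leaves 1 library at E12.5, and the calls of *Cpa1*, *Cela1* and *Clps* were then lost. In that fit the 9 genes had a median of 2.73 on the log2 scale against 0.0044 over all genes.

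From E14.5 to E17.5, 7 of the 9 genes were called higher, against 9.83% of all genes tested. *Cpb1* rose by 7.24 (SE 0.38), *Cela2a* by 6.96 (SE 0.37), *Ctrb1* by 3.87 (SE 0.35), *Clps* by 3.19 (SE 0.34), *Cela1* by 2.44 (SE 0.31), *Cel* by 2.13 (SE 0.32) and *Pnliprp1* by 2.01 (SE 0.32) on the log2 scale. *Cpa1* differed by 0.12 (SE 0.33, edgeR adjusted p = 0.842) and *Pnlip* by 1.18 (SE 0.73, 0.242). The 7 calls held without each library in turn and under every alternative run, but the fit without E17.5 v2, which leaves 22 cells at E17.5, was off centre, with 128 genes called and a median of -2.64 over all genes. *Clps* was the gene whose later step was larger than its earlier one by the most among the middle group, 3.19 against 1.66, whereas *Pnliprp1* went the other way with 2.01 against 2.97. The difference between steps was not tested.

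Over the whole span from E12.5 to E17.5 all 9 genes were called higher, against 12.6% of all genes tested, with a median of 4.84 on the log2 scale against -0.08 over all genes. The values ran from 12.81 for *Cpb1* and 12.08 for *Cela2a* through 7.34 for *Ctrb1*, 4.97 for *Pnliprp1*, 4.84 for *Clps*, 4.61 for *Cel* and 4.08 for *Cela1* to 2.68 for *Pnlip* (edgeR adjusted p = 0.00431) and 1.19 for *Cpa1* (0.00557). The test scales libraries by TMM, and its value for *Cpa1*, 1.19, exceeded the log2 of the plain CPM folds, 0.53 and 0.58 in v1 and v2. The 9 genes alone took 22.4% and 19.3% of acinar-like UMIs at E17.5 against 1.023% and 1.102% at E12.5. The *Cpa1* call ended without the E12.5 v1, the E12.5 v2 or the E17.5 v2 library, and the *Pnlip* call without E12.5 v2 or E17.5 v2, where the median over all genes was -2.48 without E17.5 v2.

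Other genes of the zymogen program moved the same way in the same fit. Of 24 further digestive enzyme genes 21 were tested, and 18, 17 and 20 were called higher at the steps E12.5 to E14.5, E14.5 to E17.5 and E12.5 to E17.5, with none lower, against 3.67%, 9.83% and 12.6% of all genes tested. The largest fitted rises over the whole span were those of *Rnase1*, which encodes pancreatic ribonuclease (16.55 on the log2 scale), *Klk1*, tissue kallikrein (13.34), and *Try4*, a trypsinogen (12.75). Each had 0 UMIs at E12.5 v1 and 1 at E12.5 v2, so these values are not exact and do not rank them. Within v1, with 3 UMIs allowed at E12.5, E17.5 was at least 1005-fold, 101-fold and 146-fold higher. Smaller rises were those of *Ctrc*, a chymotrypsin (5.30), and *Pla2g1b*, a phospholipase (2.40). Of 12 granule protein genes 8 were tested, and 4, 7 and 8 were called higher, against the same 3 percentages of all genes. The largest fitted values were those of *Cuzd1* (12.12), the granule lectin *Zg16* (11.32) and syncollin *Sycn* (7.82). *Cuzd1* had 0 UMIs at both E12.5 libraries and 38.1 CPM at E17.5 v2, at least 202-fold higher, whereas *Zg16* had 0 and 9 UMIs at E12.5 and *Sycn* was 125-fold and 159-fold higher in v1 and v2. The smallest were those of *Spink1*, a trypsin inhibitor (3.69), *Reg3g* (3.36) and *Reg1* (2.62). Trypsinogen and amylase genes have near-identical copies, so reads may have been split among them.

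The make-up of the enzyme pool turned over between the stages. Of the UMIs of the 9 genes in acinar-like cells, *Cpa1* took 57.5% and 46.3% at E12.5 v1 and v2, 34.3%, 32.9% and 17.6% at E14.5, and 3.78% and 3.97% at E17.5. *Ctrb1* went from 9.24% and 10.8% through 25.3%, 27.3% and 27.7% to 58.8% and 50.3%. *Cela2a* made up 0.0962% and 0.0131% at E12.5 and 3.23% and 3.29% at E17.5. At E17.5 the shares of *Cpa1* and *Cela2a* differed little between kits in spite of 22 cells in v1. *Ctrb1* and *Cela1* had larger shares in v1 than in v2, and *Clps* and *Pnliprp1* smaller ones.

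Shares of single cells were taken with every cell thinned at random to 2000 UMIs and shallower cells left out. At E12.5, with *Pnlip* left aside, *Cpa1* was again first and *Cela2a* and *Cpb1* last. *Ctrb1*, however, was seen in more cells than *Cela1* and *Cel*, which stood ahead of it as a percent of E17.5. At E12.5 a *Cpa1* UMI was seen in 82.8% and 91.3% of acinar-like cells of v1 and v2, *Clps* in 72.7% and 89.5%, *Pnliprp1* in 61.6% and 82.3% and *Ctrb1* in 48.5% and 56.6%. *Cela1* was seen in 24.2% and 31.2% and *Cel* in 14.1% and 11.4%, with *Cela2a* in 2.02% and 0.400% and *Cpb1* in 0% and 0.133%. Mesenchymal cells of the same libraries are set beside these, though some of their clusters held *Cpa1* or *Pnlip* beyond the acinar ratio, as given below. In mesenchymal cells *Cpa1* was seen in 6.43% and 9.65%, *Clps* in 0.447% and 8.74%, *Pnliprp1* in 0.241% and 3.99% and *Ctrb1* in 0.206% and 3.34%. Median depths before thinning were 6384 and 10235 UMIs in the acinar-like cells and 4018 and 5620 in the mesenchymal cells.

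At E14.5 *Ctrb1* was seen in 99.3%, 94.9% and 99.4% of acinar-like cells of v1 batch 1, batch 2 and v2, and *Pnliprp1* in 98.8%, 92.3% and 99.8%. *Cpa1* was at 99.9%, 89.7% and 95.4%, below *Ctrb1* in the last pair. *Cela2a* was at 11.8%, 3.85% and 13.0%, and *Cpb1* at 5.74%, 2.56% and 2.76%. At E17.5 v2 *Cela2a* was seen in 96.3% and *Cpb1* in 82.8% of cells, against 6.07% and 5.49% in mesenchyme, and in the 14 v1 cells deep enough they were at 92.9% and 85.7%. *Pnlip* stayed at 0% to 1.03% in all Swiss Webster libraries, and in mesenchyme at 0% to 1.101%, so these shares overlapped. In summed counts *Pnlip* had 5.33 CPM in acinar-like cells of E17.5 v2 against 0.103 in mesenchyme and 0.112 in haemoglobin barcodes. At E14.5 v2 it had 3.91 CPM against 6.43 in mesenchyme and 0.221 in ductal-like cells. The median number of the 9 genes per cell was 4 in each E12.5 library, 5 in each E14.5 library and 8 in each E17.5 library.

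**Figure D3:**
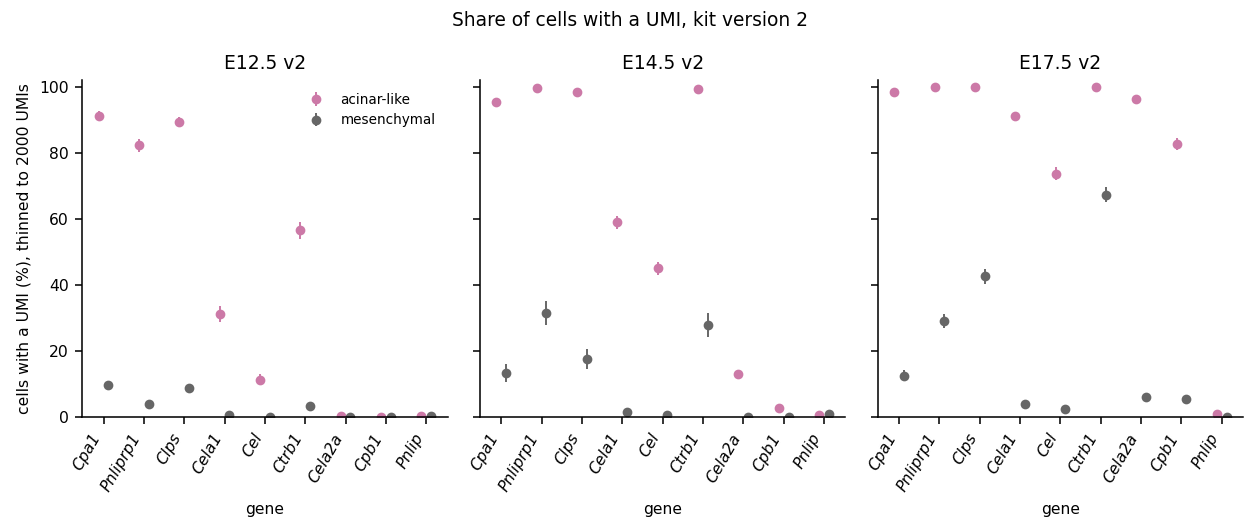
Percent of acinar-like and mesenchymal cells with at least 1 UMI of each gene after thinning to 2000 UMIs, v2 libraries of the 3 stages, with exact 95% binomial intervals. *Cela2a* and *Cpb1* pass from 13.0% and 2.76% at E14.5 to 96.3% and 82.8% at E17.5, and *Ctrb1* in mesenchyme reaches 67.4% at E17.5.

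Detection of a pair of genes in the same cells is set here beside the share over all thinned acinar-like cells. At E12.5 v2, 93.6% of 848 *Ctrb1*+ cells had a *Cpa1* UMI, close to the 91.3% of all cells, and 58.0% of 1369 *Cpa1*+ cells had *Ctrb1*, close to 56.6%. In v1 the shares lay further apart, with *Cpa1* in all 48 *Ctrb1*+ cells against 82.8% of all cells and *Ctrb1* in 58.5% of 82 *Cpa1*+ cells against 48.5%. At E12.5 v2 cells with *Cela1* or *Cel* more often had *Ctrb1*, at 69.7% of 468 and 80.1% of 171. At E14.5 v2 *Ctrb1* was in nearly all cells, so finding it in all 339 *Cela2a*+ cells shows no order. Of 72 *Cpb1*+ cells there, 17 (23.6%) had *Cela2a* against 13.0% of all cells, and in v1 batch 1 it was 12 of 39 (30.8%) against 11.8%. These differences were not tested, and at 2000 UMIs per cell a missing UMI does not show a missing transcript.

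Acinar-like clusters of the same library also differed, as a description, since the clusters were made from the same cells. At E12.5 v1 a cycling cluster of 50 cells had 2560 CPM of *Cpa1* and the other 59 cells had 9781. At E14.5 v2 a cluster of 450 cells had 15639 CPM of *Ctrb1*, 193 of *Cela2a* and 36.2 of *Cpb1*, against 8660 to 11281, 88.7 to 113 and 4.04 to 17.6 in the other 4 clusters. At E17.5 v2 a cycling cluster of 416 cells had 62895 CPM of *Ctrb1* and 1608 of *Cpb1*, and a cluster of 862 cells led by *Zg16*, *Spink1* and *Cpb1* had 136220 and 3933. Different clusters held most of the class in the E14.5 v1 batches: 429 of 708 cells of batch 1 were in a cluster led by *Serpini2* and *Clps*, and 71 of 88 cells of batch 2 in one led by *Rnaset2b* and *Reg1*.

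Levels in the Fev-Cre library are set here beside the 3 Swiss Webster libraries at E14.5, as a description. The share of all genes that lay below these 3 libraries was not computed. *Ctrb1* had 5505 CPM against 10119 to 12192, *Pnliprp1* 3010 against 8202 to 13970, *Clps* 2934 against 5045 to 6959, *Cpa1* 3975 against 6428 to 14697, *Cela1* 377 against 543 to 804, *Cel* 315 against 331 to 472 and *Cpb1* 10.4 against 19.4 to 44.4. *Cela2a*, at 33.7 against 28.1 to 110, and *Pnlip*, at 2.44 against 1.88 to 3.91, lay within the Swiss Webster range. Both lay below E14.5 v2, the library of the same kit, which had 110 and 3.91. The acinar-like class of this library also had another make-up. Acinar markers summed to 1800 CPM against 2476 to 3564, ductal markers to 630 against 317 to 347 and mesenchymal markers to 301 against 51.1 to 284. Endocrine markers, at 382 against 27.0 to 543, lay within the range, and erythroid markers were lower, at 3.37 against 701 to 1200. Genotype, strain, sort, day and class make-up differ between these libraries, as does the kit for the v1 batches. These cannot be told apart, and 1 library allows no test.

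Across 63 sums of a library and a class, the genes with the most similar pattern (Pearson r of log2(CPM + 10), a description across sums that share libraries and depth) were *Serpina6* (0.947), *Ptf1a* (0.905) and *Cckar* (0.897) for *Cpa1*, and *Erp27* (0.845), *Cckar* (0.841) and *Rbpjl* (0.837) for *Ctrb1*. *Cpb1* was closest to *Aqp12* (0.936), *Pdia2* (0.929) and *Gnmt* (0.887), and *Cela2a* to *Pdia2* (0.929), *Aqp12* (0.906) and *Erp27* (0.856). *Cel* had *Rbpjl* (0.954), *Cckar* (0.9497) and *Erp27* (0.9463) and *Cela1* had *Dhx34* (0.918), *Cckar* (0.918) and *Rbpjl* (0.909). *Clps* and *Pnliprp1* were closest to *Cckar* (0.852 and 0.885), and *Pnlip* to *Zp3* (0.872). Among the 9 genes, the closest pairs were *Cpb1* with *Cela2a* (0.960), *Ctrb1* with *Pnliprp1* (0.957) and *Cela1* with *Cel* (0.949). *Ptf1a*, *Rbpjl*, *Erp27*, *Pdia2* and *Aqp12* were among the markers that named the acinar-like cells.

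The second question was how much enzyme RNA is counted outside the acinar-like cells. In mesenchymal cells, the mean of all 9 genes together was 0.231 UMIs per cell at E12.5 v1 (95% Poisson interval 0.214 to 0.249), 2.20 and 0.345 in E14.5 v1 batches 1 and 2, 0.596 at E17.5 v1, 0.957, 2.76 and 26.4 at the v2 stages and 3.32 in the Fev-Cre library. As a percent of the acinar-like cells of the same library these were 0.346, 0.713, 0.0868, 0.0856, 0.819, 0.675, 1.25 and 1.04. *Cpa1* was a large part of some of these values, and without it the means were 0.0296 at E12.5 v1, 1.34 and 0.158 in E14.5 v1 batches 1 and 2, and 0.466 at E17.5 v1, or 0.104%, 0.661%, 0.0591% and 0.0696% of acinar-like cells. The E17.5 v1 value rested on 1 cell and was 0.127 without it. With *Cpa1* counted, the batches of E14.5 v1 differed more from each other than E14.5 v2 did from batch 1. The 9 genes took 1.69% of all UMIs of batch 1 and 0.152% of batch 2, with 708 and 88 acinar-like cells, and 0.0430% and 0.131% at E12.5 and E17.5 v1, 0.327%, 1.94% and 2.55% at the v2 stages and 0.492% in the Fev-Cre library. Intervals cover counting error only.

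Red blood cells do not make digestive enzymes, and barcodes with at least 50% haemoglobin UMIs served as another measure. These were taken with any number of genes and without the removal of doublets used for the other classes, so some may hold RNA of another cell. The 9 genes came to 0.0658 UMIs per barcode at E12.5 v1, 1.36 and 0.209 in E14.5 v1 batches 1 and 2, 0.0622 at E17.5 v1, and 1.86, 3.25 and 24.2 at the v2 stages, from 223 to 6601 barcodes. The 24.2 at E17.5 v2 became 13.2 without the top 1% of barcodes and 10.8 at a limit of 80% haemoglobin. At E17.5 v2, 99.9% of 6601 such barcodes and 100% of 1712 mesenchymal cells had at least 1 UMI of the 9 genes, with medians of 9 and 12. At E17.5 v1 the shares were 5.24% of 2460 barcodes and 15.3% of 1153 cells, with medians of 0. A low, even level and a few high cells both added to the means. In mesenchyme the top 1% of cells held 42.2% of the UMIs at E17.5 v2 and 69.4% at E17.5 v1, and without them the means were 15.4 and 0.184. At E14.5 v2 the top 1% held 3.59%, and the mean without them was 2.69.

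**Figure D4:**
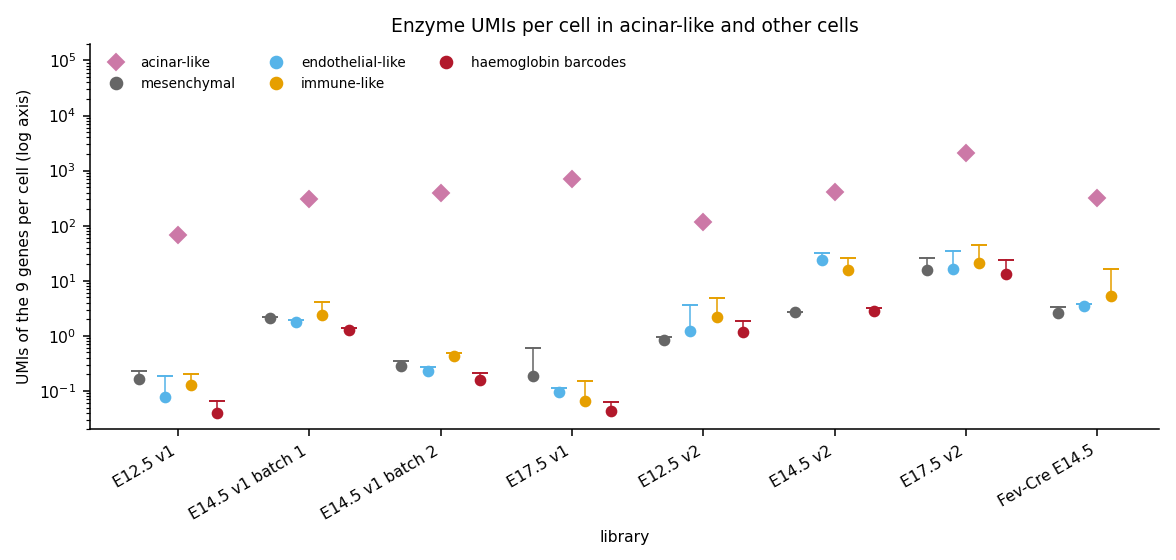
UMIs of the 9 genes per cell (log axis) by library, with diamonds for acinar-like cells, circles for the mean of mesenchymal, endothelial-like and immune-like cells and haemoglobin barcodes without the top 1% of cells and dashes for the mean of all cells. In the E17.5 v2 library these 4 classes lie at 13.2 to 21.3 without the top cells, against 2118 in acinar-like cells.

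The make-up of this RNA was close to that of the acinar-like cells in the later v2 libraries and less so in v1 mesenchyme. At E17.5 v2, *Ctrb1* made up 51.6% of the 9-gene UMIs in haemoglobin barcodes, 49.5% in mesenchyme and 50.3% in acinar-like cells. *Clps* made up 23.7%, 23.9% and 21.5% in the same order, *Pnliprp1* 15.8%, 15.7% and 18.0%, *Cela2a* 2.75%, 2.35% and 3.29%, *Cpa1* 2.98%, 4.86% and 3.97%, and *Cpb1* 1.70%, 1.92% and 1.29%. At E14.5 v2 *Pnliprp1* led in all 3 classes with 39.4%, 33.9% and 38.2%. In v1 mesenchyme *Cpa1* took more of the sum than in acinar-like cells: 87.2% of 688 UMIs against 57.5% at E12.5, 39.1% and 54.3% against 34.3% and 32.9% in E14.5 batches 1 and 2, and 21.8% of 687 UMIs against 3.78% at E17.5. A single cell held 401 of those 687 UMIs, and without the top 1% of cells *Cpa1* took 44.3% of 210. In v1 haemoglobin barcodes its share was 35.2% for E14.5 batch 1, 32.0% for batch 2 and 2.61% for E17.5. At E12.5 v2 the haemoglobin barcodes had 29.9% *Cpa1* and 41.9% *Clps* against 46.3% and 23.6% in acinar-like cells. The highest of them held 253 of their 1302 UMIs, and without the top 1% the shares were 36.4% and 35.9%. Both E17.5 v2 wells gave nearly the same level, with 12.7 and 13.5 *Ctrb1* UMIs per mesenchymal cell.

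**Figure D5:**
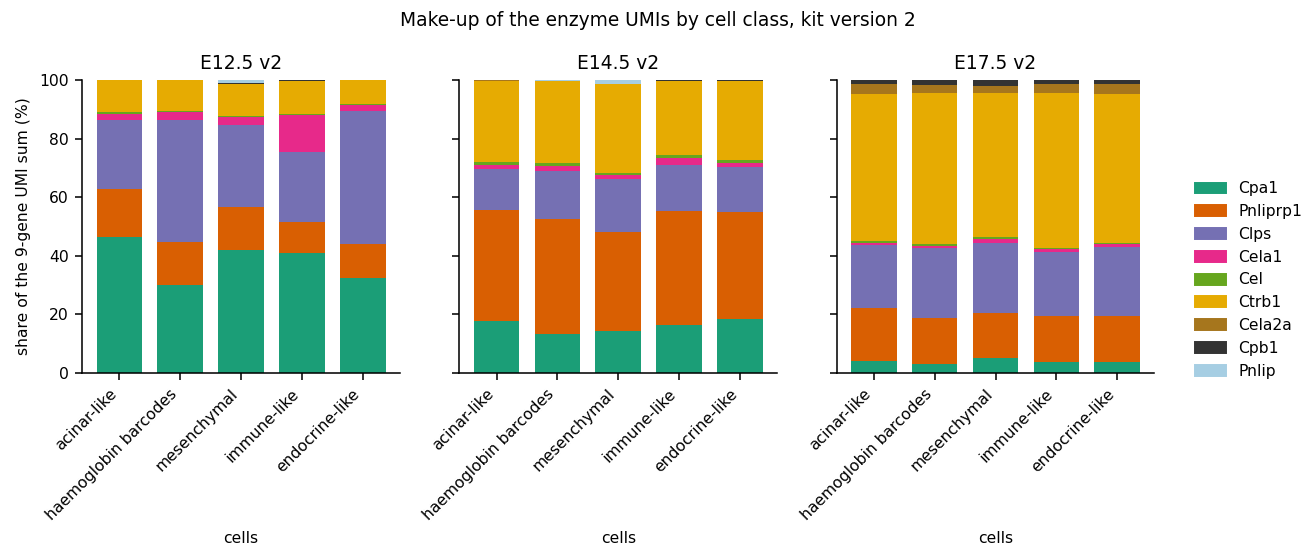
Share of each gene in the summed UMIs of the 9 genes (percent, stacked bars to 100) in acinar-like cells, haemoglobin barcodes, mesenchymal, immune-like and endocrine-like cells of the v2 libraries of the 3 stages. The E17.5 bars are alike, with *Ctrb1* at 49.5% to 52.8%, and the E12.5 bars differ most, with *Clps* at 45.7% in endocrine-like cells and 41.9% in haemoglobin barcodes against 23.6% in acinar-like cells.

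The same stage test was run in mesenchyme, over the 7 Swiss Webster libraries and 13907 genes. From E12.5 to E14.5 all 9 genes had positive changes and edgeR called 0 of them, against 1.45% of all genes called higher, while 5 of the 9 (*Cpb1*, *Clps*, *Cel*, *Ctrb1* and *Pnliprp1*) had an unadjusted p under 0.05 against 14.1% of all genes, and DESeq2 called 4 against 3.68%. From E14.5 to E17.5 *Cela2a* was called higher, by 5.97 on the log2 scale (SE 0.89, edgeR adjusted p = 0.0126), as 1 of 9 against 2.39%. The call was lost without E14.5 v1 batch 2, E14.5 v2 or E17.5 v2. Without E14.5 v1 batch 1 there were 4 calls higher, against 260 of 13705 genes, and 1 lower, *Pnlip*. From E12.5 to E17.5 4 of 9 were called higher, against 9.37%: *Cela2a* by 9.17 (adjusted p = 0.00115) and *Cpb1* by 8.69 (0.00349), each from 0 and 2 UMIs at E12.5 v1 and v2, *Ctrb1* by 6.37 (0.0142) and *Cela1* by 2.82 (0.0413), all by edgeR. The 4 calls were lost without the E17.5 v2 library, which leaves 1 library at E17.5. Without E14.5 v1 batch 1 there were 7 higher, against 1369 of 13705 genes, and, again, *Pnlip* lower. With batch as a block (batch 1, batch 2 or v2, in place of kit) 2, 4 and 7 members were called higher at the 3 steps. Of 13907 genes 211, 254 and 1377 were called higher under this block, and *Pnlip* was called lower at the last 2 steps. *Pnlip* had fitted changes of -5.32 from E14.5 to E17.5 and -4.31 over the whole span, with edgeR adjusted p of 0.0616 and 0.0591. *Cpa1*, at 0.68 (edgeR adjusted p = 0.624), was the least changed, as in the acinar-like cells.

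In some clusters outside the acinar-like class the ratio of a gene to *Ctrb1* differed from that in the acinar-like cells of the same library. The haemoglobin barcodes of E12.5 v2 departed from that ratio as well, and the part of free RNA in these clusters was not tested. They are given per 100 *Ctrb1* UMIs, as a description of clusters with counting intervals. *Cpa1* was high in mesenchymal clusters led by *Ndufa4l2*, *Cox4i2* and *Acta2*, genes of contractile cells around vessels. At E14.5 v1 batch 2, 119 such cells held 107 *Cpa1* UMIs and 12 *Ctrb1* UMIs, or 892 per 100 (490 to 1780) against 121 in acinar-like cells. At E17.5 v1, 36 cells held 51 and 3, with a *Cpa1* UMI in 47.2% of them, and at E12.5 v1, 33 cells held 19 and 0. At E17.5 v2 a cluster of 380 cells led by *Acta2* and *Actg2* held 1055 *Cpa1* UMIs with 56.1% of cells positive, a cluster of 1328 cells held 1056 with 27.9% positive, and the 4 mesenchymal cells left held 85. At E12.5 v1 *Cpa1* was also spread over other mesenchyme, with 390 UMIs beside 6 of *Ctrb1* in a cluster of 1701 cells.

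*Pnlip* in mesenchyme was as frequent as in acinar-like cells in some libraries. At E14.5 v2, 623 cells led by *Osr1*, *Igfbp2* and *Wt1* held 21 *Pnlip* UMIs, or 4.04 per 100 *Ctrb1* (2.48 to 6.24) against 0.0386 in acinar-like cells. At E14.5 v1 batch 2, 13 of 17 mesenchymal *Pnlip* UMIs were in 536 cells led by *Upk3b* and *Cav1*, genes of mesothelium, and in the Fev-Cre library 12 of 21 were in 209 cells led by *Upk3b*. At E12.5 v2, 18 UMIs each lay in clusters of 1876 and 721 cells led by *Klk13* and by *Gas1*. At E17.5 mesenchyme held 0 *Pnlip* UMIs in v1 and 2 in v2.

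*Clps* was found in endocrine-like cells of some libraries beyond the acinar ratio. At E12.5 v2 a cluster of 333 cells led by *Gcg* and *Pyy* held 2579 *Clps* UMIs beside 88 of *Ctrb1*, or 2931 per 100 (2369 to 3667) against 218 in acinar-like cells, and 80.5% of its cells had a *Clps* UMI. Haemoglobin barcodes of that library held 545 *Clps* UMIs beside 138 of *Ctrb1*. A Neurog3-led cluster of 293 cells held 4541 and 182, with 88.4% of cells positive. At E12.5 v1, *Clps* made up 70.0% of the 9-gene UMIs of endocrine-like cells and 16.5% in acinar-like cells, and at E14.5 v1 batch 2 a Neurog3-led cluster of 62 cells held 192 *Clps* and 22 *Ctrb1* UMIs. In the Fev-Cre library *Clps* took 44.8% of the endocrine-like sum and 18.2% of the acinar-like one. At E17.5 v2 the shares were 23.7% and 21.5%, a small difference, and at E14.5 v2 they were 15.3% and 13.8%. At E17.5 v1 *Clps* took 47.8% of only 46 UMIs in endocrine-like cells. It took 2580 of 15305 UMIs in acinar-like cells there and 13.1% in haemoglobin barcodes. Endocrine-like cells of E14.5 v2 held 126304 UMIs of the 9 genes, 27.0% of them *Ctrb1*. Most of these *Ctrb1* UMIs lay in 1 cluster, given next, so the E14.5 v2 share says little about the other endocrine-like cells. Clusters of 297 and 476 endocrine-like cells at E12.5 v2 and E14.5 v2 had high levels of all the abundant enzymes, such as 32648 *Ctrb1* UMIs in the latter, along with medians of 16268 and 13878 UMIs per cell against 4255 to 7865 in the other endocrine-like clusters of these libraries, and mixtures of epithelial types were not removed, so their part in this was not tested.

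*Cela1* was found in immune-like cells. At E12.5 v2, 557 cells led by *C1qb* and *Pf4*, genes of macrophages, held 365 *Cela1* UMIs beside 201 of *Ctrb1*, or 182 per 100 (152 to 217) against 19.4 in acinar-like cells, with a *Cela1* UMI in 38.1% of cells. At E14.5 v1 batch 2, 32 cells led by the mast cell proteases *Cma1*, *Tpsb2* and *Cpa3* held 20 *Cela1*, 5 *Cpb1* and 3 *Ctrb1* UMIs and a *Cela1* UMI in 43.8% of cells. At E12.5 v1, 6 of the 8 enzyme UMIs in 40 immune-like cells were *Cela1*. At E17.5 v2 immune-like cells had *Cela1* at 1.06% of the 9-gene sum, beside 0.9754% in acinar-like cells. At E17.5 v1 immune-like cells held 1.11% of the *Cela1* UMIs of the library and 0.189% of its UMIs of the 9 genes, from 46 UMIs.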

How the data were processed

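UMI counts per gene and cell were used as the authors deposited them. By the authors' account and their processing notes, reads were processed with Cell Ranger 1.1 (v1) or 2.1 (v2), aligned with STAR to mm10 and counted per gene, without length scaling. The 2 E17.5 v2 wells were summed, and the Fev-Cre matrix made with the reporter sequences was used. Members and gene lists were chosen with earlier results of these data known. All 9 members are named whatever their values, and of other enzyme and granule genes the 3 with the largest and the 3 with the smallest change from E12.5 to E17.5. One of these genes is not reported here. Batch 2 spans the 3 v1 stages by the labels, so batch was also fitted as a replicate block.

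Cells with 200 or more genes were clustered per kit, Fev-Cre apart and epithelium again per stage (leidenalg 0.10.2, igraph 0.11.9, Python 3.11.15, 20 components, 20 neighbours, resolution 1) without enzyme and granule genes. Epithelial clusters took a name from at least 3 fixed markers 1.5-fold above the other epithelial cells of the stage, in 10% of cluster cells. Compartments such as mesenchyme were named by the highest mean marker level, each marker scaled to its 95th percentile over clusters. Here 3 markers had to reach 25% of that scale in 10% of cells. Under both rules the second name had to stay below 85% of the first. Cells with markers of 2 compartments were left out as doublets, except from the haemoglobin barcodes. This misses mixtures of 2 epithelial types. UMIs summed per library and class, with at least 20 cells, were tested with edgeR 4.0.16 (R 4.3.3, TMM, filterByExpr, stage and kit as terms, Benjamini-Hochberg adjustment), with DESeq2 1.42.0 as an alternative. The code was also run on simulated counts. These gave every gene the same spread and held no kit or batch effect, so they do not test the fit under such effects. With 1 pool per stage and kit, E14.5 v1 apart, few libraries are left to estimate the spread. That spread comes from stage differences that disagree between kits and from the E14.5 v1 batches, so it is not the spread of replicate pools. In acinar-like cells the edgeR p-values match a normal curve for the change over its SE, which treats the spread as known. Very small p-values there are therefore firmer than the number of pools allows. Other alternatives were scaling, filters, kit term, class definition and each library left out. Binomial and Poisson intervals are exact at 95%. Gene positions are from GENCODE M21, and promoter sequences from RefSeq (GRCm38.p6), which held 8 of the 9 genes.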

Additional observations from a re-analysis of the deposited data

Results flagged for a closer look

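Among 37 combinations of a gene, class and step that both kits could give, 2 went in opposite directions in the kits. *Cpa1* in acinar-like cells was 1.19-fold higher at E17.5 than at E14.5 in v2, and in v1 the E17.5 library was at 0.603 and 0.577 of E14.5 batches 1 and 2. *Cpa1* in mesenchyme was 1.78-fold higher at E17.5 than at E12.5 in v2 and at 0.939 of it in v1. The difference between kits was not tested in either case, as there was 1 library per stage in each kit apart from E14.5 v1.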

How the results depend on the processing

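In acinar-like cells, 788, 2313 and 2868 genes were called at the steps E12.5 to E14.5, E14.5 to E17.5 and E12.5 to E17.5. DESeq2 gave 332, 1333 and 1813, a fit with no kit term 123, 732 and 1267, and a class of cells with UMIs of *Ptf1a*, *Rbpjl* or *Bhlha15* 408, 1166 and 1493. Keeping the enzyme genes in the clustering gave 455 at the earlier step. With no kit term 4 members were called at the earlier step and 7 over the whole span, as with the class set by transcription factor UMIs, where *Cpa1* and *Pnlip* were lost. In mesenchyme the 241, 405 and 1774 of 13907 genes became 592, 876 and 2243 of 19708 without a filter. They became 628, 820 and 2069 by DESeq2, and 0, 0 and 281 with no kit term. The 0, 1 and 4 members called there, all higher, became 5, 3 and 8 without a filter and 4, 2 and 8 by DESeq2, where *Pnlip* was called lower at both later steps, and, at those steps, 0 and 1 with no kit term. The 26.4 UMIs per mesenchymal cell at E17.5 v2 became 47.5 with doublets kept and 15.4 without the top 1% of cells, and the 24.2 per haemoglobin barcode became 10.8 at a limit of 80%.

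Leaving out each library in turn gave 201 to 1176, 128 to 3594 and 191 to 3770 genes and 5 to 8, 7 and 7 to 9 members in acinar-like cells, and 16 to 293, 99 to 454 and 666 to 1868 genes and 0 to 2, 0 to 5 and 0 to 8 members in mesenchyme. Changes of sign on the log2 scale were limited to these. In acinar-like cells from E14.5 to E17.5, *Cpa1* ran from -0.39 (without E17.5 v2) and -0.34 (without E14.5 v2) to 0.57, and was -0.26 with the class set by transcription factor UMIs. In mesenchyme, with single libraries left out, *Pnlip* at the earlier step ran from -0.0036 to 2.04 and *Cpa1* over the whole span from -0.28 to 1.30. At the step from E14.5 to E17.5 *Cpa1* ran from -1.38 to 0.49 (0.21 in a further case), *Clps* from -0.15 to 2.72, *Pnliprp1* from -1.89 to 0.93 (0.30 in a further case) and *Cel* from -1.85 to 1.86 (-1.74 and -0.35 in further cases). *Pnliprp1* was at 0.95 with no kit term and 0.013 with doublets kept, and *Cel* at -0.35 by DESeq2. The cause was not tested.

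Scaling by DESeq2 size factors moved the median of all genes to -0.10 at the first acinar step, and leaving out E17.5 v2 moved it to -2.64 and -2.48 at the later ones. With DESeq2 size factors the acinar member calls other than *Cpa1* held. With batch as a replicate block, an alternative chosen after seeing the data, the member calls in acinar-like cells stayed at 8, 7 and 9. Of all 11424 genes there, 1088, 3422 and 3543 were called. Member calls in mesenchyme became 2, 5 and 8, the last pair with *Pnlip* lower, against 238, 327 and 1876 of 13907 genes. From E14.5 to E17.5 in mesenchyme *Cpa1* was at 0.49 and *Pnliprp1* at 0.93 on the log2 scale under this block. Both were opposite in sign to the fit with kit. The block gives batch 1, a single library, a term of its own. With 22 acinar-like cells at E17.5 v1, v2 sets most of the E17.5 counting precision.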
